A study of Mus musculus with 2 samples.

Results

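The 10 genes described here encode interferon-inducible GTPases, namely the guanylate-binding proteins (GBPs) Gbp2, Gbp3, Gbp5, Gbp6 and Gbp7 and the immunity-related GTPases (IRGs) Iigp1, Irgm1, Irgm2, Igtp and Tgtp1. Of 31253 genes in the table, these 10 were chosen by name within the GBP and IRG families and on their RNA levels in the same libraries, so their differences between the libraries are given as a description with no test. Gene expression was compared between 1 library of mouse neural retinal progenitor cells (mNRPCs) and 1 library of mouse retina tissue, both of strain C57BL/6. The mNRPCs were grown from dissociated neural retina of adult mice on Matrigel and collected after 24 passages in N2/B27 medium with bFGF, a fibroblast growth factor, and with CHIR99021, which blocks the kinase GSK3. The retina was collected directly, and neither the labels nor the study's methods name an interferon treatment for either group. Values were FPKM, in which fragments are scaled to transcript length and to the size of the library, summed over the RefSeq transcripts of a gene.

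GBPs and IRGs are GTPases of cell-autonomous immunity. In mouse cells, interferons, above all interferon gamma, switch on their genes through interferon regulatory factors and other transcription factors, and the proteins gather on vacuoles that hold intracellular parasites or bacteria and help to disrupt these. Irgm1, Irgm2 and Igtp (also called Irgm3) are regulatory IRGs, which sit on the cell's own membranes and hold effector IRGs such as Iigp1 (Irga6) and Tgtp1 (Irgb6) inactive there. Resting tissue usually holds little RNA of either family.

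The gamma-activated site (GAS) and the interferon-stimulated response element (ISRE) are promoter elements of interferon-induced genes, and interferon regulatory factors bind the ISRE. The promoters of the members were searched for these elements, since the RNA of all members stood higher in the same library. RefSeq promoters on GRCm38.p6 were found for 8 of the 10 genes, with Gbp6 and Iigp1 missing. The 250 bases before the start were searched on both strands for the GAS letters TTCNNNGAA and for the ISRE core letters GAAANNGAA, with overlapping matches counted. The stretch next to the start is shown for each of the 8 genes, 5′ to 3′ on the strand of the gene. It has 120 bases, or 170 for Gbp5, whose ISRE core lies farther out, and capitals mark the bases of GAS and ISRE core matches.
Gbp2, chr3:142620543-142620662, plus strand: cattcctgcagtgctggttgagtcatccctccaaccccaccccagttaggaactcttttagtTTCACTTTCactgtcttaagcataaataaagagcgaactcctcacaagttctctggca
Gbp3, chr3:142559924-142560043, plus strand: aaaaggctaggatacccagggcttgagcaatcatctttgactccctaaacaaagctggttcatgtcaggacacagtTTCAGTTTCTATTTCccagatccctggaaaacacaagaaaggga
Gbp5, chr3:142496764-142496933, plus strand: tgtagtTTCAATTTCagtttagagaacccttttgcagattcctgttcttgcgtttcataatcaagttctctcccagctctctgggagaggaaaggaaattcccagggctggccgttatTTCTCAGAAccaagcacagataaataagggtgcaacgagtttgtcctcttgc
Gbp7, chr3:142530216-142530335, plus strand: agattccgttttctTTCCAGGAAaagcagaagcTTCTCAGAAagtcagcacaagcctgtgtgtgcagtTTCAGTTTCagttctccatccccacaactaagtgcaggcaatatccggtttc
Irgm1, chr11:48871421-48871540, minus strand: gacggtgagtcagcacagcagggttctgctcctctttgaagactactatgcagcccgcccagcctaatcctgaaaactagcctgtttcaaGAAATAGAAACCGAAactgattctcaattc
Tgtp1, chr11:48992247-48992366, minus strand: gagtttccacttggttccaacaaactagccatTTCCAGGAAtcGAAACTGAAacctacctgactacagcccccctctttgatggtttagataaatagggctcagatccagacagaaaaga
Igtp, chr11:58199436-58199555, plus strand: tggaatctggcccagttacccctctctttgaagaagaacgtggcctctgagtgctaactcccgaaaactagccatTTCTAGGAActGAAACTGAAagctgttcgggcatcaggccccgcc
Irgm2, chr11:58214857-58214976, plus strand: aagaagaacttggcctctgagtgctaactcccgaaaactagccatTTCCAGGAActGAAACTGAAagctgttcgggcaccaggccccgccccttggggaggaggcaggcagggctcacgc

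An ISRE core match was present in all 8 of these genes, against 7.13% of the 32851 promoters in the table. Gbp3 has a further start with no match to either motif. A GAS match was present in 5 genes (Gbp5, Gbp7, Tgtp1, Igtp and Irgm2), against 7.02% of all promoters, and both motifs were present in the same 5, against 0.752%. In Tgtp1, Igtp and Irgm2 a GAS match was followed after 2 bases by an ISRE core match. This spacing, looked for after it had been seen in these genes, was found in 7 promoters of the table (0.0213%), the others being those of Tgtp2, the close copy of Tgtp1, of Gm12185, an IRG family gene at 0.0890 FPKM in mNRPCs and under 3 fragments in retina, and of Olfr382 and LOC115488470. The genes are not independent examples, as the 250 bases of Igtp and Irgm2 shared a run of 55 identical bases, and those of Irgm2 and Tgtp1 a run of 20. In Gbp2 and Gbp3 the ISRE core letters lay on the opposite strand, 58 to 50 and 44 to 30 bases before the start, and in Irgm1 on the strand of the gene, 30 to 16 bases before it. A match is a description of the letters and no measure of binding.

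The depth behind the values was estimated from the lowest FPKM values, which gather at the worth of 1 fragment. It came to 6.49e+06 fragments in the mNRPC library against 5.07e+06 in retina. Intervals given here are 95% counting intervals from these estimated fragments, cover counting error only, and say nothing on the spread between cultures or animals, which 1 library per group cannot show. The FPKM values of the mNRPC library summed to 1.43 times those of the retina library. Progenitor genes such as Sox2 (231 FPKM in mNRPCs, 18.5 in retina) and the proliferation gene Mki67 (35.6 and 0.0986) were higher in mNRPCs. Of the 7 progenitor markers examined, 4 were at least 2-fold higher in mNRPCs, 2 lay between and 1 was at least 2-fold lower. The retina library held the rod genes Gnat1 (5072 FPKM) and Sag (2404), which were at 2.58 and 1.33 FPKM in mNRPCs.

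All 10 GTPase genes were higher in mNRPCs than in retina. Their FPKM summed to 517 in mNRPCs and to 9.96 in retina, a ratio of 52.0. The log2 ratio of a gene, the log2 of (mNRPC FPKM + 1)/(retina FPKM + 1), ranged from 2.09 to 5.86 over the members, with a median of 4.73. The median over all 13780 genes that reached 1 FPKM in either library was −0.12. Every member reached that minimum, and all 10 had a log2 ratio of at least 1. Among the compared genes 24.5% lay at least this far higher in mNRPCs and 30% at least this far lower. As this contrast chose the members, nothing is read from their count. After both libraries were rescaled to a common FPKM sum, the median of all genes was −0.68. The higher genes were then 30.2% of the genes past 2-fold in place of 44.9%. As 14961 genes then reached 1 FPKM in place of 13780, the filter and the 1 added to each FPKM also weighed differently. The member median was 4.61 after this rescaling, 5.29 above the median of all genes, against 4.85 above it as deposited. With upper quartile scaling it lay 4.85 above that median, and with trimmed mean scaling 4.86 above it.

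**Figure D1:**
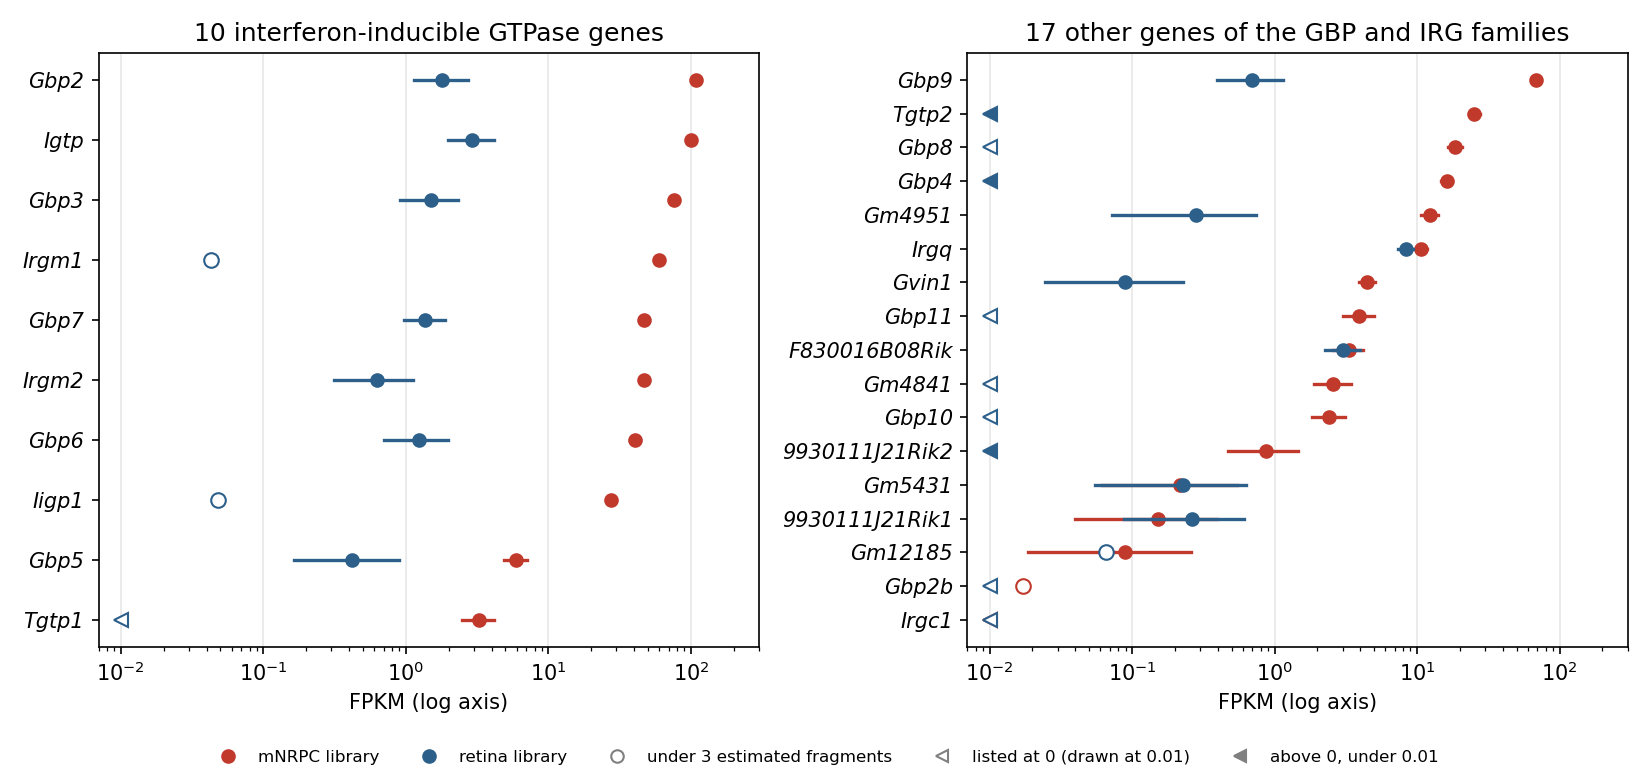
FPKM in the mNRPC library (red) and the retina library (blue) on a log axis, for the 10 GTPase genes (left) and 17 other genes of the families (right), ordered by mNRPC level. Bars are 95% counting intervals, open circles are values under 3 estimated fragments and triangles stand for values listed at 0 or under 0.01. The 10 members, chosen on these levels, sit between 3.25 and 110 FPKM in mNRPCs and at or below 2.91 FPKM in retina.

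The members of the chromosome 3 GBP cluster were Gbp2, Gbp3, Gbp5 and Gbp7. Gbp2, a prenylated GBP that coats pathogen vacuoles, was at 110 FPKM in mNRPCs against 1.81 in retina. It was the most abundant of the 10 in mNRPCs and lay 60.7-fold higher there (counting interval 40.3 to 95.9), with a log2 ratio of 5.30. Gbp3 was at 76.4 FPKM in mNRPCs against 1.497 in retina, which is 51.0-fold higher (32.9 to 83.8). Gbp7 was at 47.0 and 1.37 FPKM, 34.4-fold higher (25.0 to 48.5). Gbp5, known for its part in inflammasome responses, was the lowest of the 5 GBP members in mNRPCs, with 5.90 FPKM in mNRPCs against 0.422 in retina. Its 6.53 estimated fragments in retina left the fold of 14.0 with a wide interval (6.43 to 37.0). Of the chromosome 5 cluster the member was Gbp6, at 40.7 FPKM in mNRPCs against 1.23 in retina, 33.0-fold higher (20.3 to 57.9). Together the 5 GBPs had 279 FPKM in mNRPCs against 6.32 in retina.

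The regulatory members were the more abundant of the 5 IRGs in mNRPCs. Igtp was at 101 FPKM in mNRPCs against 2.91 in retina, the highest retina value of all members, and was 34.6-fold higher in mNRPCs (24.1 to 51.6). Irgm2 was at 47.0 and 0.628 FPKM, 74.8-fold higher (41.6 to 150.2). Irgm1, which mice need for resistance to mycobacteria and other intracellular bacteria, was at 59.4 FPKM in mNRPCs against 0.0427 in retina. The retina value of Irgm1 came to 0.488 estimated fragments, under the limit of 3 fragments (0.262 FPKM) that was used as the floor. Against this floor Irgm1 was at least 226-fold higher in mNRPCs, and its log2 ratio of 5.86 was the highest of the members.

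The effector members Iigp1 and Tgtp1 were lower in mNRPCs than the regulatory members, and neither passed 3 estimated fragments in retina. Iigp1, which loads onto the vacuole of Toxoplasma gondii, was at 27.5 FPKM in mNRPCs against 0.0477 in retina, an estimated 0.716 fragments. Against the floor of 0.202 FPKM it was at least 136-fold higher in mNRPCs. Tgtp1 was at 3.25 FPKM in mNRPCs but listed at 0 in retina, so no fold is given. An estimate of 0 can be a failed estimate, and 3 fragments of Tgtp1 in the retina library would be 0.210 FPKM. The regulatory genes Irgm1, Irgm2 and Igtp summed to 207 FPKM in mNRPCs and the effector genes Iigp1 and Tgtp1 to 30.8, a ratio of 6.74. With Tgtp2 added to the effectors the sum was 56.1 FPKM and the ratio 3.70.

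Levels within a library can be compared between genes because FPKM are per length. In mNRPCs the order from high to low was Gbp2, Igtp, Gbp3, Irgm1, Gbp7, Irgm2, Gbp6, Iigp1, Gbp5 and Tgtp1, a span of 33.7-fold. Neighbours in this order were apart by their counting intervals except for Gbp2 and Igtp and for Gbp7 and Irgm2. In retina the order was Igtp, Gbp2, Gbp3, Gbp7, Gbp6, Irgm2, Gbp5, Iigp1, Irgm1 and Tgtp1, and the intervals of all neighbours with more than 3 fragments overlapped. Iigp1, Irgm1 and Tgtp1 were below 3 fragments in retina, so their order there is not resolved. Among compared genes, Gbp2 was at percentile 94.3 of the mNRPC levels and percentile 16.2 of the retina levels. Irgm1 was at percentiles 89.3 and 2.07. Tgtp1 was at percentile 31.7 in mNRPCs, a value that rests on an uncertain division of reads with its copy Tgtp2.

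By log2 ratio, 8 of the members lay above percentile 97 of all compared genes. The remaining genes, Gbp5 (percentile 91.0) and Tgtp1 (89.4), also had the lowest mNRPC levels. When the pseudocount was 0.1 in place of 1, Tgtp1 went from 2.09 to 5.06 and Gbp5 from 2.28 to 3.52. Iigp1 and Irgm1, both under 3 fragments in retina, went from 4.77 to 7.55 and from 5.86 to 8.70. The genes nearest to the median point of the members in the plane of both libraries were Capg, Myof, Knstrn, Slc25a24 and Fjx1, at distances of 0.144 to 0.161 in log2(FPKM + 1). As this likeness rests on 2 libraries, it says only that these genes had similar levels, such as 51.9 and 0.862 FPKM for Capg.

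**Figure D2:**
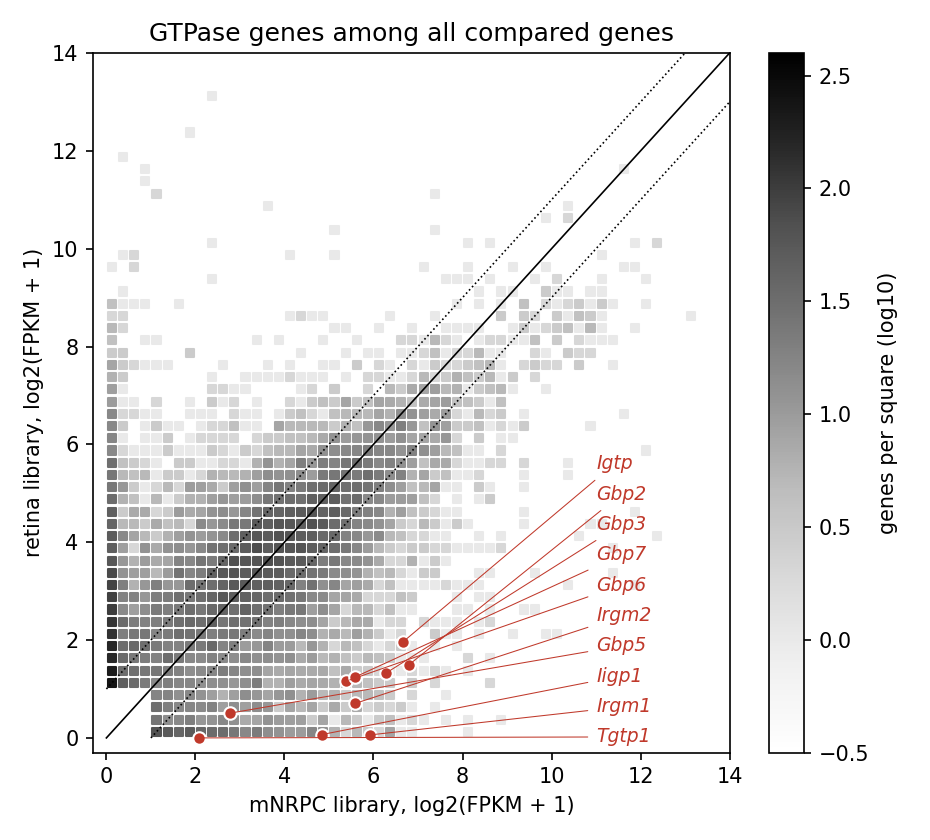
Levels in the mNRPC library (x axis) and the retina library (y axis) as log2(FPKM + 1), with the number of compared genes per square in grey and the 10 GTPase genes in red. The solid line marks equal levels and the dotted lines a log2 ratio of 1 in either direction. All 10 members lie right of the lower dotted line, from Tgtp1 (log2 ratio 2.09) to Irgm1 (5.86).

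Several of the genes are close copies of each other, which bears on how far single values can be read. For each gene the main transcript was cut into windows of 50 bases, and windows found exactly in transcripts of another gene were counted. For Tgtp1 91.4% of the windows were shared, 89.4% with Tgtp2 alone. Tgtp2 was at 25.3 FPKM in mNRPCs against 0.00959 in retina, so the division of reads between the copies, 3.25 and 25.3 FPKM, is uncertain. The retina value of Tgtp2 was an estimated 0.137 fragments, under its floor of 0.211 FPKM. The sum of both copies was 28.5 FPKM in mNRPCs, with a log2 ratio of 4.87. For Gbp6 90.2% of the windows were shared with Gm43302, a GENCODE M21 gene model that overlaps Gbp10 and Gbp6 and to which no row of the table was matched. Gbp10, at 2.41 FPKM in mNRPCs, shared 62.3% of the windows of Gbp6, so the level of Gbp6 is uncertain too. In the other 8 members the shared portion was between 0.814% (Irgm1) and 12.8% (Gbp7). Without Gbp6 and Tgtp1 the median log2 ratio of the members was 4.82.

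Transcript rows within a gene also differed between the libraries. Of Gbp7, which has 2 rows, the main row held 75.7% of the FPKM in mNRPCs and 99.0% in retina. Of Gbp3 the main row held 63.5% in mNRPCs and 83.2% in retina, and of Gbp6 59.3% and 92.2%. In mNRPCs 47.6% of Iigp1 was on its main row and 96.3% of Irgm1. In each gene the main row was the same transcript in both libraries where retina had more than 3 fragments. With only 16.2 (Gbp6) to 38.9 (Gbp7) estimated fragments of these genes in retina, and with reads divided among overlapping transcripts by estimation, these shares are rough. When only the highest row of each gene was used, the log2 ratio of Iigp1 was 3.80 in place of 4.77.

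**Figure D3:**
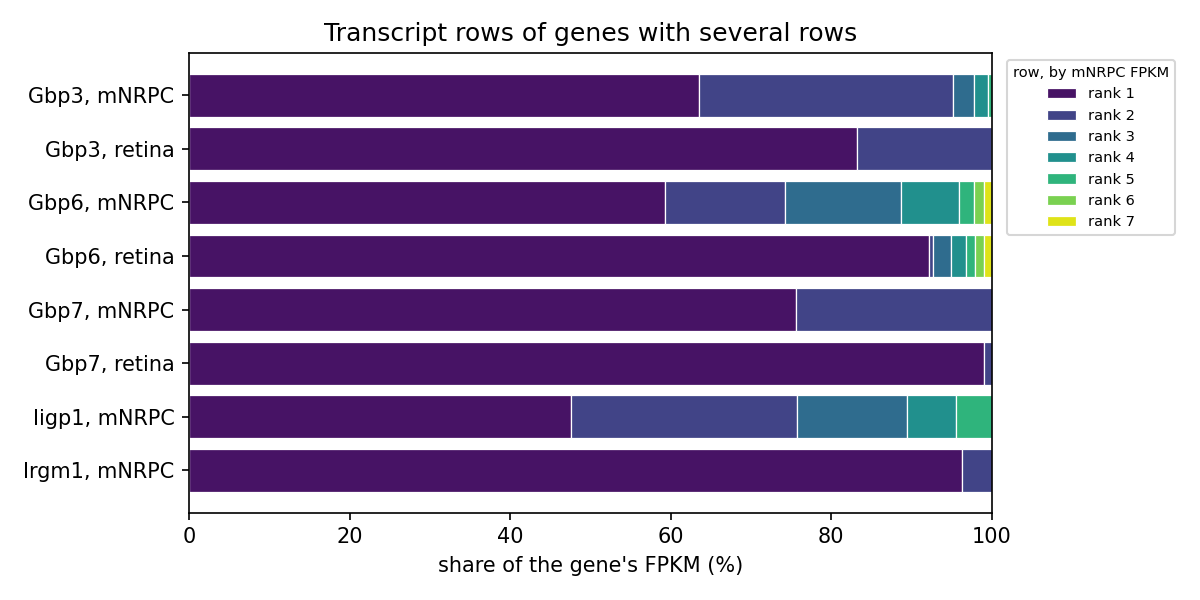
Share of a gene's FPKM on each of its transcript rows, for members with several rows, in the mNRPC library and, where retina had more than 3 estimated fragments, the retina library. Colours rank the rows of a gene by mNRPC FPKM. The first row holds 63.5% of Gbp3 in mNRPCs and 83.2% in retina.

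A list of 17 other genes of the families, which leaves out the IRG genes Ifi47 and Gm12250, was described next. Of these 17 genes, 11 reached 1 FPKM in at least 1 library. Among the latter, 9 had a log2 ratio of at least 1, 0 were lower and 2 lay between, with a median log2 ratio of 2.33. With curated rows only 1 gene was lower, as also when accessions were matched with their version. The median was 5.03 with a pseudocount of 0.1. Among all compared genes 24.5% had a log2 ratio of at least 1 and 30% one of at most −1. The 9 higher genes were each under 1 FPKM in retina and reached the minimum through mNRPCs alone. With the pseudocount of 1, such a gene listed at 0 in retina must have a log2 ratio of at least 1. Nothing is therefore read from the count. Gbp9, of the chromosome 5 cluster, was at 68.8 FPKM in mNRPCs against 0.699 in retina, 98.4-fold higher (60.0 to 174). Only 12.1% of the mNRPC value of Gbp9, 8.31 FPKM, was on its curated row, which was near 0 in retina (4.19e-05 FPKM), and the rest was on predicted transcripts. Gbp8 (18.6 FPKM), Gbp11 (3.92), Gbp10 (2.41) and Gm4841 (2.59) were listed at 0 in retina. Gbp4 was at 16.2 FPKM in mNRPCs and under 3 fragments in retina, at least 124-fold higher. Gm4951 was at 12.3 and 0.280 FPKM and Gvin1, a very large interferon-inducible GTPase, at 4.47 and 0.0891. Irgq, an IRG-like gene, was at 10.6 and 8.31 FPKM (log2 ratio 0.32), and F830016B08Rik at 3.31 and 3.02 (0.10). Levels under 1 FPKM in both libraries were seen for Gbp2b, Irgc1, 9930111J21Rik1, 9930111J21Rik2, Gm12185 and Gm5431. Irgc1 was listed at 0 in both libraries.

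The genes lie in clusters, and coordinates are given on GRCm38.p6. On chromosome 3 the order was Gbp5 (142496934 to 142522344), Gbp7, Gbp3, Gbp2b and Gbp2 (142620663 to 142638008). Gbp2b, between Gbp3 and Gbp2, was at 0.0171 FPKM in mNRPCs (0.312 estimated fragments) but listed at 0 in retina, while its neighbours Gbp3 and Gbp2 were at 76.4 and 110 FPKM in mNRPCs. Only 1.84% of its windows were shared with another gene. Flanking genes outside the family had smaller log2 ratios than Gbp7, Gbp3 and Gbp2, with 1.97 for Pdlim5 and 1.09 for Kyat3. On chromosome 5 Gbp8, Gbp9, Gbp4, Gbp10 and Gbp6 (105270702 to 105295871) followed each other among the genes placed, which leave out Gbp11. The next gene placed was Lrrc8b, which was at 32.1 FPKM in mNRPCs against 26.7 in retina. Further flanking genes were higher in mNRPCs, with log2 ratios of 2.13 for Lrrc8c and 1.89 for Zfp951. On chromosome 11 Irgm1 (48865245 to 48871420) and Tgtp1 (48985329 to 48992246) lay in one cluster and Igtp (58199556 to 58207592) and Irgm2 (58214977 to 58222783) in another. Neighbours of the IRGs there included Ifi47, which encodes a further IRG, at 16.5 FPKM in mNRPCs against 0.502 in retina, and Gm12250, likewise an IRG gene, at 4.39 FPKM and listed at 0. Between Irgm1 and Tgtp1, the genes Gm5431, Gm12185, Psme2b and 9930111J21Rik1 stayed at or under 0.265 FPKM in both libraries. Zfp692, beyond Irgm2, was at 11.3 FPKM in mNRPCs against 36.7 in retina. Iigp1 lies on chromosome 18 (60373616 to 60392634).

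**Figure D4:**
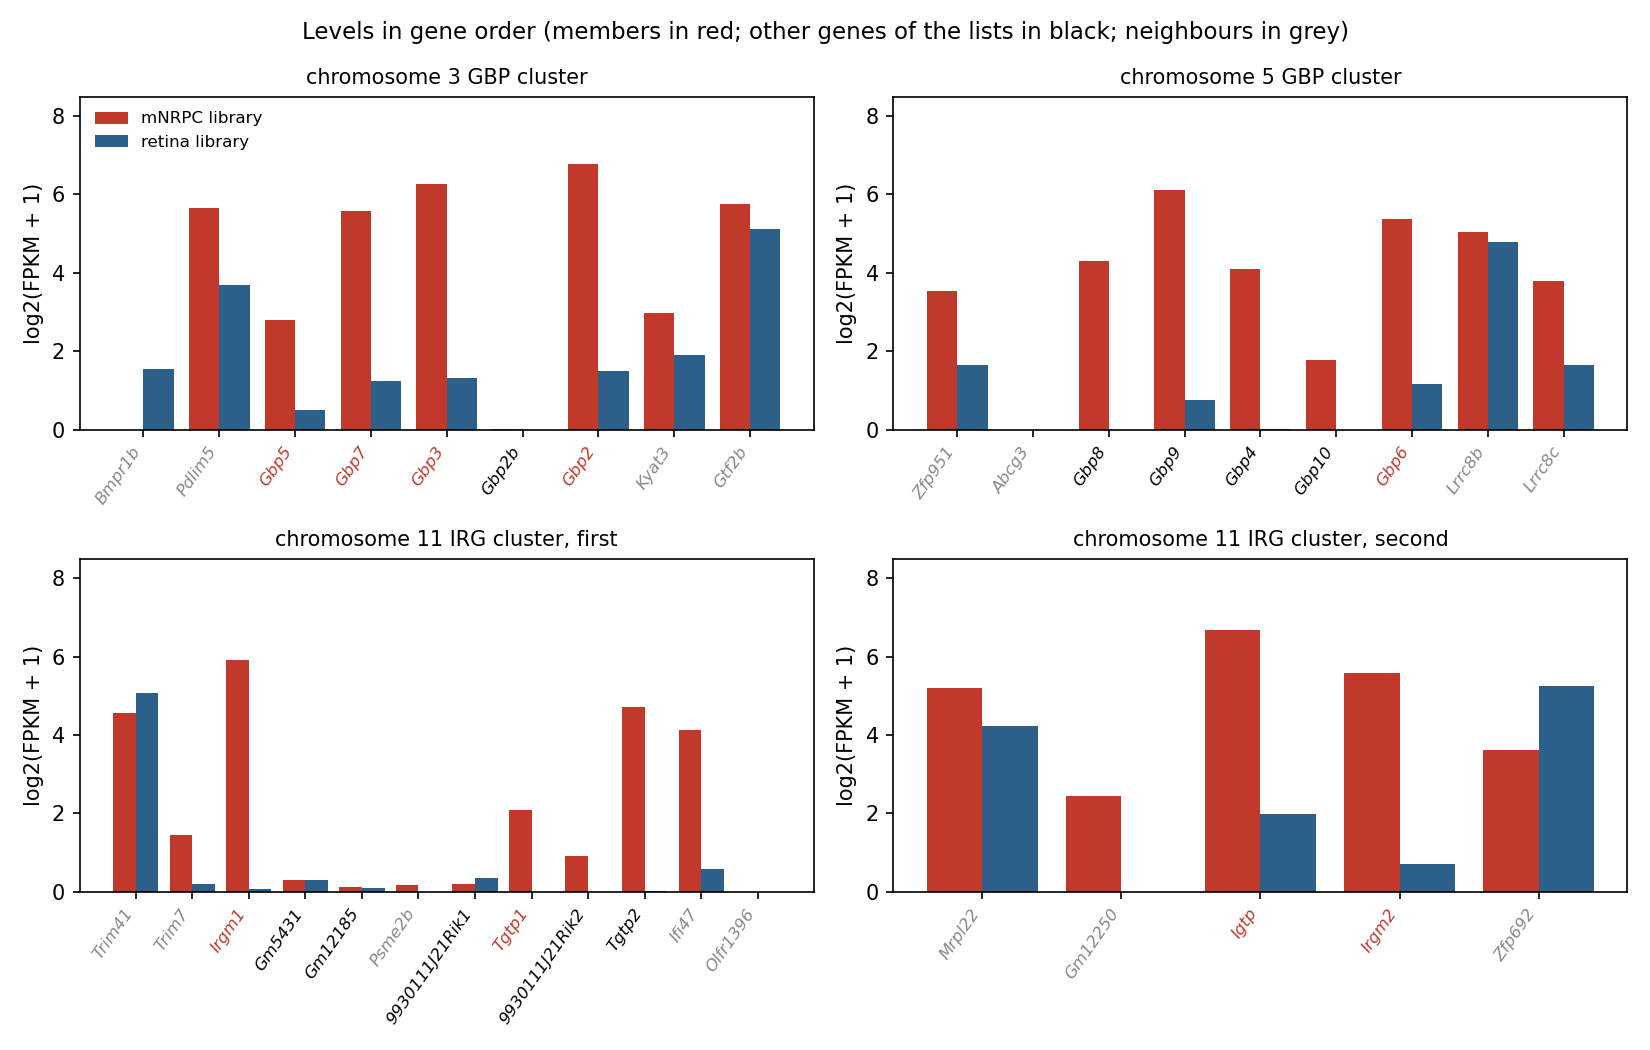
Levels as log2(FPKM + 1) in the mNRPC library (red bars) and the retina library (blue bars), for genes of the clusters on chromosomes 3, 5 and 11. Genes are in their order on the chromosome, with up to 2 flanking protein-coding genes on each side. Names of members are in red, and Iigp1, on chromosome 18, is not drawn. Gbp2b (0.0171 FPKM in mNRPCs) stands between Gbp3 (76.4) and Gbp2 (110).

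Genes of interferon signalling, with the MHC gene regulators Nlrc5 and Ciita, were compared as a list of 20, of which 17 reached 1 FPKM. Of these 13 were higher in mNRPCs, 0 were lower and 4 lay between (Ifnar1, Jak1, Jak2 and Irf2), with a median log2 ratio of 1.67. After rescaling to a common sum 11 of 18 were higher and the median was 1.21, while 2751 of all 14961 genes then compared were higher. Ifng, the gene of interferon gamma, was listed at 0 in both libraries. Ifnb1, the gene of interferon beta, was at 0.627 FPKM in mNRPCs (3.05 estimated fragments) but listed at 0 in retina. Of the interferon gamma receptor, Ifngr1 was at 36.4 FPKM in mNRPCs against 16.4 in retina (log2 ratio 1.10), and Ifngr2 at 28.5 and 8.26 (1.67). The kinase genes Jak1 (10.8 FPKM in the cultured cells, log2 ratio −0.03) and Jak2 (22.6 FPKM, 0.76) were within 2-fold.

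With the pseudocount of 1, the largest log2 ratios of this list were those of Irf7 (381 FPKM in mNRPCs, 9.27 in retina, 5.22), Irf1 (66.0 and 3.06, 4.04) and Stat2 (56.6 and 4.11, 3.50). The smallest were those of Jak1, Irf2 (0.66) and Ifnar1 (0.71). Irf1 and Irf7 encode transcription factors of interferon-induced genes. Nlrc5, a regulator of MHC class I genes, was at 7.85 FPKM in mNRPCs and under 3 fragments in retina, at least 92.0-fold higher. This bound is above the folds of Irf7 (41.0), Irf1 (21.5) and Stat2 (13.8). Ciita, the counterpart of Nlrc5 for MHC class II, was listed at 0 in mNRPCs and at 0.0254 FPKM in retina, also under 3 fragments. Socs1 and Socs3, feedback inhibitors of cytokine receptors, were at 7.25 and 27.5 FPKM in mNRPCs against 0.898 and 1.72 in retina.

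Large GTPases outside the families were listed as a contrast. Mx1 and Mx2, antiviral GTPases of interferon-treated cells, were at 16.6 and 21.3 FPKM in mNRPCs and each under 3 fragments in retina, at least 75.7-fold and 86.9-fold higher. Atlastins, which fuse membranes of the endoplasmic reticulum and are close relatives of GBPs, were at moderate levels in both libraries. Atl2 was 6.27-fold higher in mNRPCs (4.79 to 8.34, log2 ratio 2.34) and Atl3 at 27.5 and 6.74 (1.88). Atl1 was lower in mNRPCs, at 4.33 and 14.5 FPKM (−1.54).

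The ubiquitin-like conjugation system of autophagy directs GBPs and IRGs to pathogen vacuoles. A list of 12 genes held genes of this system together with the autophagy genes Becn1 and Sqstm1, which are not part of it. All 12 were compared, and 2 were higher in mNRPCs, 3 were lower and 7 lay between, with a median log2 ratio of −0.31. After rescaling to a common sum 1 was higher and 5 were lower, while of all 14961 genes then compared 2751 were higher and 6349 lower. Gabarap was at 322 and 94.8 FPKM (log2 ratio 1.75), Sqstm1 at 354 and 128 (1.46) and Atg5 1.77-fold higher (1.44 to 2.18, log2 ratio 0.77). At the other end, Gabarapl1 was at 55.4 and 154 FPKM (−1.46), Atg16l1 at 8.48 and 24.6 (−1.43) and Gabarapl2 at 81.6 and 186 (−1.18). All 12 genes were detected with more than 3 fragments in both libraries.

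**Figure D5:**
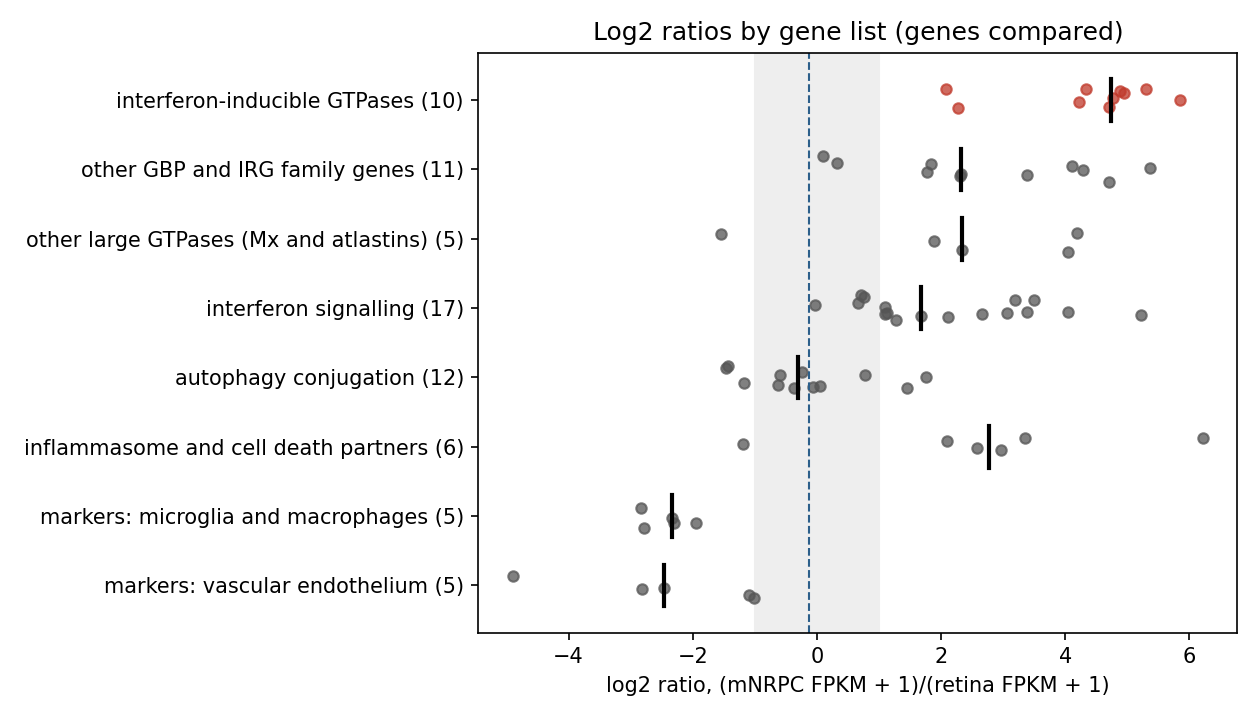
Log2 ratios of the compared genes of each list (points) with the list median (black bar) and the number of genes compared in brackets. The grey band spans log2 ratios from −1 to 1 and the dashed line marks the median of all compared genes (−0.12). The 10 interferon-inducible GTPases have a median of 4.73. The list labelled autophagy conjugation, which also holds Becn1 and Sqstm1, has a median of −0.31.

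Markers of other cell types were examined beside the members. Of 12 markers of microglia and macrophages 11 were listed at 0 in mNRPCs, among them Ptprc, Tyrobp, C1qa and Cx3cr1, and Csf1r was at 0.00796 FPKM, under 3 fragments. Summed, these markers were at 0.00796 FPKM in mNRPCs against 24.9 in retina. Of 6 markers of T and NK cells 5 were listed at 0 in mNRPCs and Cd8a was at 0.106 FPKM, under 3 fragments. The 8 markers of vascular endothelium summed to 1.03 FPKM in mNRPCs, most of it Flt1 (0.896), and to 49.6 in retina. All 6 markers of Mueller glia were at least 2-fold lower in mNRPCs, with a median log2 ratio of −5.14. The highest of these in mNRPCs, Glul, was at 31.4 FPKM there against 897 in retina. Markers of fibroblasts and mural cells were mixed. Pdgfrb was at 4.49 FPKM in mNRPCs against 1.24 in retina, and Acta2 at 10.1 and 4.39, while Rgs5 was listed at 0 in mNRPCs and Col1a2 was at 0.0843, under 3 fragments. The sum of these 8 genes was 18.0 FPKM in mNRPCs against 18.1 in retina, and the part of such cells in the GTPase levels was not tested. In bulk RNA, fewer cells of a type and less RNA per cell cannot be told apart, and the culture and the tissue differ in cell types, growth and handling at once.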

How the data were processed

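One library of mNRPCs at passage 24 and one of retina tissue were used, grouped by their labels. The deposited values were FPKM, which the authors had computed per RefSeq transcript. The submitters' processing notes name TopHat2 2.0.10 and GRCm38.p3, while the study's methods describe Bowtie 2 and eXpress for RNA sequencing of treated mNRPCs. How reads shared by several transcripts were divided is therefore uncertain. Estimates below 1e-06 FPKM were read as 0.

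Accessions were matched without version to RefSeq symbols (GRCm38.p6) and then to GENCODE M21, which named 74283 of 106754 rows (69.6%), and rows were summed per gene. Python 3.11.15, pandas 2.3.3 and scipy 1.17.1 were used. Genes with at least 1 FPKM in 1 library were compared with a pseudocount of 1. With 1 library per group no test was made. Depth was read from FPKM multiplied by length in genes with 1 row of at least 1500 bp, as the peak between 0.08 and 0.27 FPKM times kilobases. This step was tested on simulated data of whole fragments, with and without error in the lengths. A range of 0.02 to 1, tried after the data were seen, gave 6.58e+06 fragments for mNRPCs and 4.96e+06 for retina. From the depth came a floor of 3 fragments and exact counting intervals (95%). For the retina library the estimate ran from 4.93e+06 to 5.65e+06 with other minimum lengths.

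The members and lists were chosen with earlier results of these data known. Named were all members, all genes of the family list, and of each other list the 3 highest and lowest log2 ratios with chosen receptors, kinases, Irf1 and Ifng, and some genes of this rule are not reported here. Further names were picked after values were seen. Alternatives concerned pseudocount, scaling, rows, matching and filter.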

Additional observations from a re-analysis of the deposited data

How the results depend on the processing

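All 10 members kept a log2 ratio of at least 1 under the 7 alternatives for pseudocount, scaling, rows and matching, and the 70 resulting values ranged from 2.05 to 8.70. Of these 50 were within counting error and 20 moved beyond it. The member median was 5.32 with a pseudocount of 0.1 and 4.21 with the highest transcript row only. Rows are then dropped in both libraries, and the median of all genes was −0.0517 in that setting. The dropped rows held a larger share of Gbp3, Gbp6 and Gbp7 in mNRPCs than in retina. The number of genes at least 2-fold lower was 6349 after rescaling to a common sum. The median of all genes was −0.68 after this rescaling, −0.00992 with curated rows only, 0 without a filter and 0.0387 at a minimum of 5 FPKM. What moved these medians was not tested. The value without Gbp6 and Tgtp1 and the sum of Tgtp1 and Tgtp2 were added after the data were seen. Depth limits Irgm1, Iigp1 and Tgtp1 in retina, where values lay below 3 fragments. No paired analysis was possible because the labels give 1 library to each group.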

Other observations

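Genes that act with GBPs in cell death and inflammasome responses were a further list of 7. Of these 6 reached 1 FPKM in at least 1 library, 5 were higher in mNRPCs and 1 was lower. Among all compared genes 24.5% were at least this far higher, by a log2 ratio of at least 1, and 30% at least this far lower. Of the higher genes only Gsdmd reached 1 FPKM in retina. The others passed the minimum through mNRPCs alone, and the lower gene passed it through retina alone. Zbp1, a sensor of Z-form nucleic acids, was at 78.8 FPKM in mNRPCs against 0.0695 in retina, an estimated 0.700 fragments, and was at least 102-fold higher. Gsdmd, the gene of the pore-forming protein gasdermin D, was at 21.7 and 1.23 FPKM, and Pycard, the gene of the adaptor ASC, at 12.1 and 0.689. Casp4, the gene of mouse caspase-11, was at 4.99 FPKM in mNRPCs but listed at 0 in retina, and Casp1 was at 3.85 FPKM in mNRPCs and under its floor of 0.396 FPKM in retina, at least 9.72-fold higher. The sensor gene Nlrp3 was listed at 0 in mNRPCs, which can be a failed estimate, and at 0.0183 FPKM in retina, under the floor of 0.147. Aim2, a DNA sensor gene, was the lower gene, listed at 0 in mNRPCs and at 1.28 FPKM in retina.

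Smim3, the gene next to Iigp1 and outside the family, was at 38.6 FPKM in mNRPCs against 1.18 in retina, a log2 ratio of 4.18.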
